A study of Rattus norvegicus with 5 samples.

Results

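The genes described here code for cyclins and their kinases, for proteins that copy DNA and for proteins that carry cells through mitosis. They were taken from a list of 36 gene names by matching each name to the gene names of the array, disregarding a mark for predicted genes. This gave 32 genes with 51 probes and 60 spots, of 35658 gene or transcript names, 41012 probes and 43379 non-control spots on the array. Of the 4 other listed genes, Aurka and Rad54b were found only through an accession or an older name and are reported apart, and Mcm3 and Mki67 had no match. The RNA came from Fao cells, a line from a rat liver tumour that still makes many hepatocyte proteins. They grew for 2 days with 10% serum, then spent 16 h without serum but with 10 nM of the glucocorticoid dexamethasone, and received 10 nM insulin for 0, 15, 30, 45 or 60 min. Each time was measured on 1 array, so no time has a replicate, all 5 groups had the same starvation and glucocorticoid, and cells kept for these times without insulin were not analysed here.

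Cells enter the division cycle in G1, when D-type cyclins, made in answer to growth factors, bind CDK4 and CDK6 and release E2F factors from the retinoblastoma protein. E2F factors then drive the genes of cyclin E, of the MCM helicase that is loaded on replication origins, and of the enzymes that make deoxynucleotides. Genes of G2 and mitosis, such as Plk1 and Ccnb1, are switched on later in the cycle, often through CHR and CCAAT elements in their promoters. Hepatocytes in the adult liver rarely divide, whereas hepatoma lines cycle and slow down when serum is withdrawn.

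Promoter sequences are shown first, because licensing genes were the role group with the lowest median at 60 min, while the mitotic kinase, spindle and chromosome genes had the highest median at 30 min. RefSeq promoters on GRCr8, from 250 bases before to 50 bases after the start of each gene, were given for 24 of the 36 listed genes and not for Ccna2, Ccnd1, Ccnd2, Ccne2, Cdk6, Cdkn1c, Cdc6, Mcm4, Rrm2, Aurkb, E2f1 and Rad54b. Both strands were searched for the E2F words TTTCCCGC, TTTGGCGC, TTTCGCGC and TTTGGCGG, and words on opposite strands may overlap. An E2F word was in 7 of the 24 promoters (29.2%) and in 2.18% of all 33469 promoters of this length. All 5 MCM promoters in the table, those of Mcm2, Mcm3, Mcm5, Mcm6 and Mcm7, held one, as did the promoters of Cdc25a and Tyms. The promoters of the 4 measured MCM genes lie at chr4:122918045-122918344 (Mcm2, minus strand), chr19:13488563-13488862 (Mcm5, plus), chr13:42404303-42404602 (Mcm6, minus) and chr12:22163129-22163428 (Mcm7, minus), with the E2F words in capitals.
Mcm2: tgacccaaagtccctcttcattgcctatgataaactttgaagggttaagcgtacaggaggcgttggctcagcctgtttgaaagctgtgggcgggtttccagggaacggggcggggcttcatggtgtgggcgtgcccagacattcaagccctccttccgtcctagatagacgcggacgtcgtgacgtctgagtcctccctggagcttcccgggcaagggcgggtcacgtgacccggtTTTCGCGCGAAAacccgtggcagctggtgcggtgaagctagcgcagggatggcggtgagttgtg
Mcm5: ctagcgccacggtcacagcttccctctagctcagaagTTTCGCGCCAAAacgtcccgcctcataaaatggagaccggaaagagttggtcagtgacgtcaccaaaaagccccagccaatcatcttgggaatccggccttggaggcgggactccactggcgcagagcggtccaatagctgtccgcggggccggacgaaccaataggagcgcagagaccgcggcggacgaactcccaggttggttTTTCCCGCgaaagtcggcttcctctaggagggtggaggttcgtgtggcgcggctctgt
Mcm6: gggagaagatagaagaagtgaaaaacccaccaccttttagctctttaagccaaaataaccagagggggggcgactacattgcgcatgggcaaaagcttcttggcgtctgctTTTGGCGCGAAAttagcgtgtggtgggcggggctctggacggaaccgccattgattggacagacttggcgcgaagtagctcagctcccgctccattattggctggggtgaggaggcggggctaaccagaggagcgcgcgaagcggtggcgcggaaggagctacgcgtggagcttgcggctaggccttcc
Mcm7: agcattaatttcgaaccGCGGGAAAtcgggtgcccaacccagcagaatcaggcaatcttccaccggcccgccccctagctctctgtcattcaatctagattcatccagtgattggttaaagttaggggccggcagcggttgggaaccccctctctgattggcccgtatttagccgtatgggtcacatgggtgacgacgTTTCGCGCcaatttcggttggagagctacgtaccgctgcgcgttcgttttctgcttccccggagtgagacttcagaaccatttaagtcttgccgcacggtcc

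The CHR word TTTGAA was in 7 of the 24 promoters (29.2%) and in 18.3% of all promoters. It was in 6 of the 10 promoters of G2 and mitotic genes in the table, those of Ccnb2, Cdc20, Plk1, Birc5, Top2a and Mki67, and also in that of Mcm2. CCAAT, which can overlap an E2F word by a base, as it does in Mcm7, was in 18 of the 24 promoters (75%) and in 37.5% of all promoters. The promoters of Plk1 (chr1:186147408-186147707, plus strand) and Top2a (chr10:84473044-84473343, minus strand) are printed because these genes were among the mitotic genes with the higher values at 15 and 30 min, with the CHR word of either strand in capitals.
Plk1: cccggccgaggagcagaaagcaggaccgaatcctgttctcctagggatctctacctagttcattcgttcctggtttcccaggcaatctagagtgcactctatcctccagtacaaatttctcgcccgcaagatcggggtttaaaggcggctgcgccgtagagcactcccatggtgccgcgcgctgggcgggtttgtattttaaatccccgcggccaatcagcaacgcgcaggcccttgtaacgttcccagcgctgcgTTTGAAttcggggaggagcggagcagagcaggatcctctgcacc
Top2a: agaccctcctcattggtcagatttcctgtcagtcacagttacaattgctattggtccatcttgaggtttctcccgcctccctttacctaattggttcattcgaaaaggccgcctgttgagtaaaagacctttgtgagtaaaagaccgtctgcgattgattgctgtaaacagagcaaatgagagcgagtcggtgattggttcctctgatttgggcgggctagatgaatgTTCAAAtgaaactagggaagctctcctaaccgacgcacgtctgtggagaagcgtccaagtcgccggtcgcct
A word in these windows is a match of letters and says nothing of binding, which these arrays did not measure.

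Of the 32 genes, 30 were well above background on all 5 arrays, whereas Ccnb2, a mitotic cyclin, and Ccnd2, a D-type cyclin, were not well above background on any. By probe, 47 of 51 were well above background on all 5 arrays. No spot of these genes was saturated. Between 50.87% and 56.45% of non-control spots per array were well above background. Precision is limited by having 1 array per time and, except for the brighter Cdkn1b probe, 1 spot per probe on each array. All 12 hepatocyte markers on a fixed list were well above background on all 5 arrays. Of 12 markers of other liver cells, 10 were found, 5 of which (Pecam1, Vwf, Krt7, Epcam and Lyve1) were on none and 4 (Cd68, Cd14, Col1a1 and Krt19) on all. Arrays of 0 to 45 min shared slide 1 and scan 1, in order of time, and the 60 min array lay on slide 2 with its own scan. Slide and time cannot be told apart at 60 min, nor position and time on slide 1. Between spots of one probe the median standard deviation (SD) gave a change between arrays an SD of 0.196, 0.188, 0.196 and 0.184 log2 units at 15, 30, 45 and 60 min. This SD covers the spots of an array and not the spread between cultures.

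A level below is the log2 ratio of a probe's processed signal to the 75th percentile of signals on that array, a change is the level at a time minus that at 0 min, and a gene with several probes is represented by its brightest. A series of 5 values gives those of 0, 15, 30, 45 and 60 min. All 4 changes of a gene share its single 0 min value. In whole cultures, a smaller share of cells in a cycle phase and less RNA per cell cannot be told apart.

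No gene of the 30 differed 2-fold from 0 min at any time. At 15 min 0 of 30 were 2-fold higher (0.11% of all genes) and 0 lower (0.278%), at 30 min 0 higher (0.233%) and 0 lower (0.21%), at 45 min 0 higher (0.325%) and 0 lower (0.279%), and at 60 min 0 higher (0.64%) and 0 lower (0.701%). Past 1.5-fold there was 1 gene, Ccnd1 at 60 min, where 3.41% of all genes were as far up and 3.82% as far down. At 15, 30 and 45 min 0 of 30 were past 1.5-fold, beside 1.1%, 1.14% and 1.71% of all genes upward and 0.921%, 0.945% and 1.09% downward. The Ccnd1 change was under 1.5-fold when scaled on control transcripts (0.54) and against the 15 min array (0.52). Against 15 min 1 gene, Cdc25a, was 1.5-fold lower at 45 min (1.2% of all genes) and 3, Ccnb1, Plk1 and Bub1, at 60 min (6.1%), and 0 were 1.5-fold higher (1.4% and 3.48%). The median change of the 30 genes was 0.06, −0.08, −0.14 and 0.00 at 15, 30, 45 and 60 min, beside 0.03, 0.02, 0.02 and 0.02 over all genes. Below their 0 min level by any amount were 11, 18, 21 and 15 of the 30, beside 42.0%, 45.0%, 45.2% and 48.1% of all genes. The 15 min median turned to −0.32 with normexp background correction and to −0.12 with arrays scaled on added control transcripts, a scaling that moved the median of all genes to −0.14, −0.12, −0.19 and −0.19.

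Smaller shifts were counted against the SD between spots. At 15 min 10 of the 30 genes were higher by more than this SD (18.0% of all genes) and 4 lower (10.5%). By 30 min the counts were 9 higher (18.5%) and 6 lower (14.1%). At 45 min 2 were higher (17.6%) and 13 lower (13.3%). At 60 min 8 were higher (27.5%) and 10 lower (25.8%), both near the shares over all genes.

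**Figure D1:**
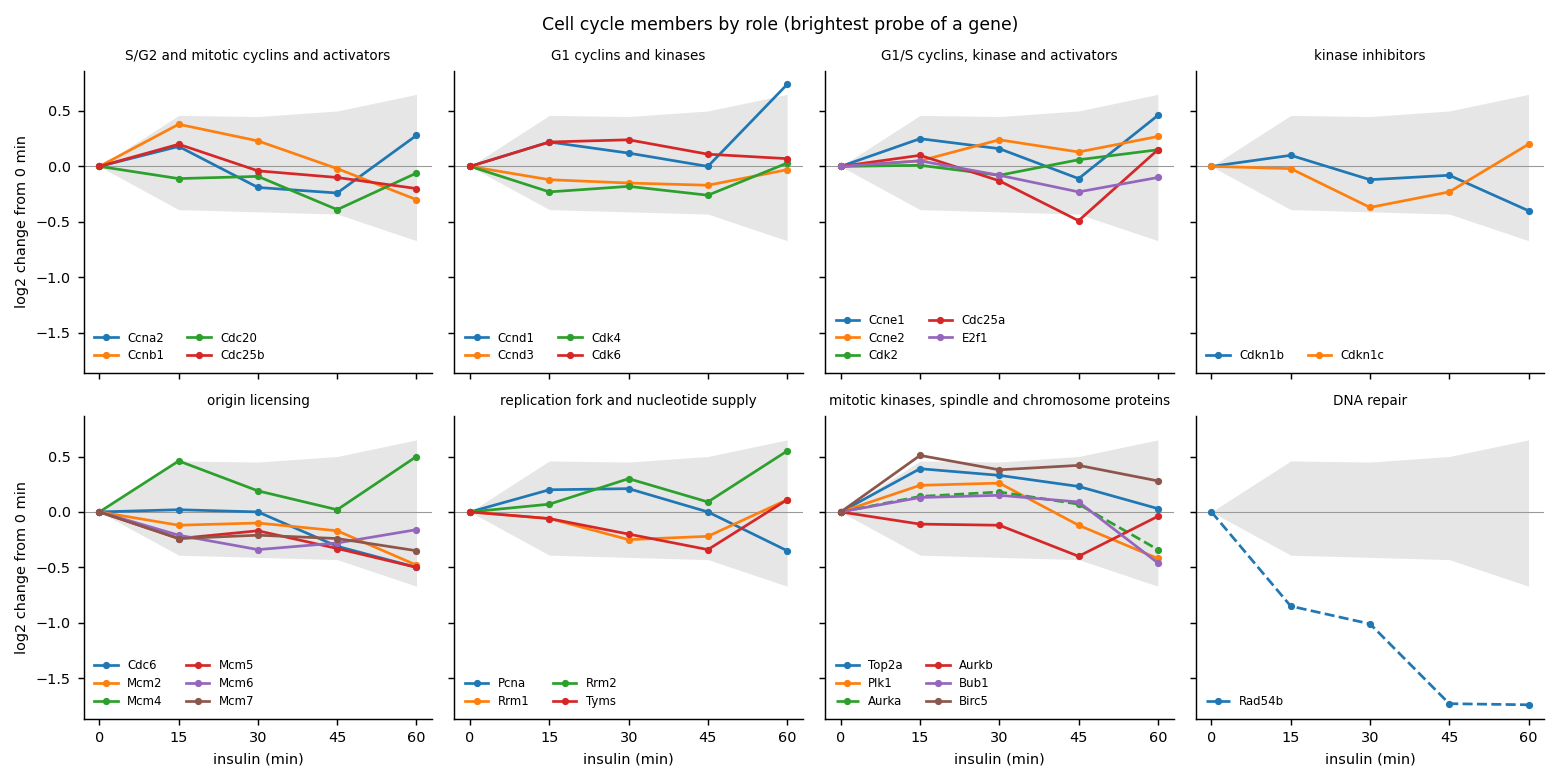
Log2 change from 0 min (vertical axis) against minutes of insulin (horizontal axis) for the brightest probe of each gene, 1 panel per role, with 1 array per time and no error bars. Dashed lines mark Aurka and Rad54b, found outside the name match, and grey spans the central 95% of all genes; Ccnd1 at 60 min (0.74) and Birc5 and Mcm4 at 15 min (0.51 and 0.46) lie at or above the upper edge, and Cdc25a at 45 min (−0.49) and Rad54b from 15 min on lie below the lower edge.

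Among G1 cyclins and kinases, Ccnd1 stood apart at 60 min. Ccnd1 codes for cyclin D1, the D-type cyclin through which growth factors act on the G1 clock. Its levels were 3.08, 3.31, 3.20, 3.09 and 3.82 on the probe at chr1:205357582-205357641 (rn4). A second probe, at chr1:205359847-205359906, gave 2.85, 3.20, 3.03, 2.91 and 3.76. Both probes were highest on the 60 min array and lowest on the 0 min array, with a smaller peak at 15 min. The changes at 60 min were 0.74 (1.67-fold) and 0.91, both larger than the SD between spots, and 1.73% of all genes had a larger increase than the brighter probe. At 60 min these probes lay 0.52 and 0.56 above the highest array of slide 1. Over the alternatives with 0 min as reference the change of Ccnd1 at 60 min was between 0.54, when scaled on control transcripts, and 0.84, and against the 15 min array it was 0.52.

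The other G1 genes differed little from 0 min. Ccnd3, which codes for cyclin D3, had levels of 1.77, 1.65, 1.62, 1.60 and 1.74, so that its changes were all within the SD between spots. Cdk4, a kinase partner of the D-type cyclins, gave 3.44, 3.22, 3.27, 3.19 and 3.47, with the arrays of 15 to 45 min lower than those of 0 and 60 min. Its second probe was at 3.25, 3.26, 3.15, 3.16 and 3.55 and showed no such dip at 15 min. Cdk6, the other partner, was at −1.63, −1.41, −1.39, −1.52 and −1.56. The median change of the 4 measured genes was 0.05, −0.02, −0.09 and 0.05.

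Of the genes that act at the G1/S transition, the cyclin E genes were higher at 60 min and the others were close to their 0 min levels. Ccne1, which codes for cyclin E1, the partner of CDK2 at S phase entry, had levels of 2.66, 2.91, 2.82, 2.55 and 3.12. Its second probe gave −0.83, −0.76, −0.68, −0.66 and −0.55. Both were highest at 60 min, by 0.46 and 0.28 above 0 min. Ccne2, the second cyclin E gene, had changes of 0.27 and 0.41 at 60 min on its 2 probes, and its second probe, at −1.54, −1.26, −1.10, −1.50 and −1.13, was about as high at 30 min. The sign of both genes at 60 min was the same under every alternative with 0 min as reference. Over these the change ran from 0.26 to 0.54 for Ccne1 and from 0.07 to 0.34 for Ccne2, whose lowest value was within the SD between spots. Against the 15 min array the changes were 0.21 for Ccne1 and 0.22 for Ccne2.

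Cdk2, the kinase that cyclin E activates, gave opposite answers by probe. The brighter probe was at 1.71, 1.72, 1.63, 1.78 and 1.86, and the dimmer at −0.74, −0.72, −0.73, −0.89 and −1.16. At 60 min the first was 0.15 higher than at 0 min, within the SD between spots, and the second 0.42 lower. Cdc25a, a phosphatase that activates CDK2, had levels of −1.23, −1.13, −1.37, −1.72 and −1.09. Its 45 min array was the lowest, 0.49 under 0 min, and 1.78% of all genes were further down at that time. E2f1, the transcription factor itself, was at 2.68, 2.73, 2.60, 2.45 and 2.58, again lowest at 45 min.

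Both kinase inhibitors of the list were measured. Cdkn1b codes for p27, which holds CDK2 inactive in resting cells and whose gene FoxO factors can activate. Its brighter probe had 10 spots per array, with mean levels of 2.09, 2.19, 1.97, 2.01 and 1.69. The spots on each array had an SD of 0.175, 0.205, 0.175, 0.148 and 0.128. The 60 min array was the lowest, at 0.40 under 0 min, and spots of both arrays overlapped only slightly, since the highest at 60 min was 1.86 and the lowest at 0 min 1.79. A second probe was at 0.72, 1.0, 0.50, 0.74 and 0.47, also lowest at 60 min. Over the alternatives the change at 60 min was −0.60 to −0.32.

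Cdkn1c, which codes for p57, an inhibitor from an imprinted gene, had 4 probes. The 2 probes of 1 transcript accession were not well above background on any array. Of the other 2, the brighter was at −1.35, −1.36, −1.71, −1.57 and −1.14 and the dimmer at −3.22, −3.33, −3.53, −3.45 and −2.76. On both, 30 min was the lowest array and 60 min the highest.

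At 60 min 5 of the 6 measured licensing genes were below their 0 min level, a sign that no alternative with 0 min as reference turned in these 5, beside 48.1% of all genes below theirs. These genes load the MCM helicase on origins before S phase, and their median change was −0.16, −0.13, −0.26 and −0.41. Under the alternatives that keep 0 min as the reference it ranged from −0.61 to −0.31 at 60 min. Against the 15 min array the changes at 60 min were smaller for several of these genes. They were −0.52 (Cdc6), −0.36 (Mcm2), −0.26 (Mcm5), −0.10 (Mcm7), 0.03 (Mcm4) and 0.06 (Mcm6), so Mcm6 turned in sign. Mcm5, an MCM subunit, was at 0.47, 0.23, 0.31, 0.14 and −0.03 (chr19:13992982-13993041, rn4). Its 0 min array was the highest and its 60 min array the lowest, 0.50 apart (1.41-fold), and 5.84% of all genes were further down. Mcm7, another subunit, followed with 2.58, 2.34, 2.37, 2.34 and 2.24, so that all 4 later arrays were under 0 min by more than the SD between spots.

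Mcm2 was at 2.95, 2.83, 2.85, 2.78 and 2.47, lowest at 60 min by 0.48. Its second probe, at 2.70, 2.61, 2.75, 2.60 and 2.59, moved by less than the SD between spots at every time. Mcm6 was at 2.85, 2.64, 2.51, 2.58 and 2.70 and differed in having its lowest array at 30 min. Its change at 60 min, −0.16, was within the SD between spots.

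Cdc6, the loader that brings the helicase to origins, had levels of −1.27, −1.25, −1.27, −1.58 and −1.77. The first 3 arrays were level, and the change was −0.31 at 45 min and −0.50 at 60 min. Mcm4 went the other way on its brighter probe, with −2.33, −1.86, −2.14, −2.30 and −1.83. Its second probe was at −2.51, −2.08, −2.47, −2.61 and −2.60. The probes thus shared the higher value at 15 min and parted at 60 min, where their changes were 0.50 and −0.08, the widest gap between probes of 1 gene here.

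Genes of the replication fork and of nucleotide supply had no common course, with a median change of 0.11 at 60 min that turned to −0.09 when scaled on control transcripts. Rrm2 codes for the small subunit of ribonucleotide reductase, which makes deoxynucleotides. It was at 1.47, 1.55, 1.77, 1.56 and 2.02 on the brighter probe (chr6:42357945-42358004, rn4), 0.55 higher at 60 min. On its second probe it was at −0.67, −0.47, −0.36, −0.27 and −0.55, with the highest array at 45 min and a change of 0.12 at 60 min. Both probes had 0 min as their lowest array. Rrm1, the large subunit, had 3 probes, with changes at 60 min of 0.11, −0.02 and −0.42 from the brightest to the dimmest.

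Pcna codes for the sliding clamp of the replicative polymerases. Its levels were 3.68, 3.87, 3.88, 3.67 and 3.33 on the brighter probe and 2.29, 2.11, 2.30, 2.17 and 2.37 on the other. At 60 min the first was 0.35 lower than at 0 min and lay 0.35 below the lowest array of slide 1, and the second was 0.09 higher. Tyms, which makes thymidylate, was at 0.86, 0.80, 0.66, 0.52 and 0.96. Each later array of slide 1 was lower than the one before it, and the 60 min array was the highest of all.

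**Figure D2:**
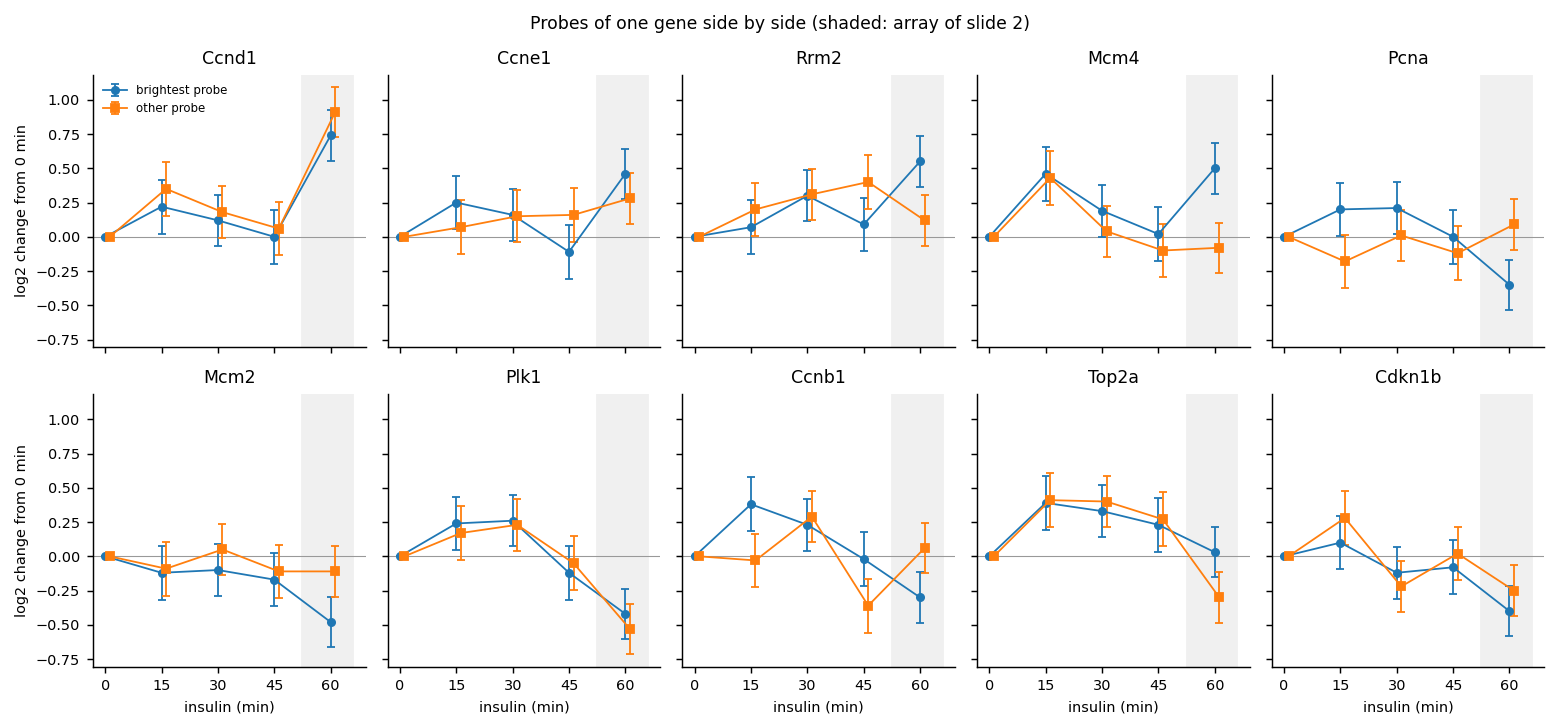
Log2 change from 0 min (vertical axis) against minutes of insulin (horizontal axis) for both probes of 10 genes, circles for the brighter and squares for the other, with the array of slide 2 shaded and bars of 1 SD of a change as set by spots within arrays. Both probes of Ccnd1, Ccne1, Plk1 and Cdkn1b lie on one side of 0 at 60 min, whereas those of Mcm4 (0.50 and −0.08) and Pcna (−0.35 and 0.09) lie on opposite sides.

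The S/G2 and mitotic cyclins and their activators were mostly higher at 15 min and lower at 45 min, with a median change of 0.19, −0.07, −0.17 and −0.13. The 15 min median was 0.01 scaled on control transcripts and −0.19 with normexp. Ccnb1 codes for cyclin B1, which with CDK1 starts mitosis. Its levels were 1.72, 2.10, 1.95, 1.70 and 1.42, highest at 15 min and lowest at 60 min, a span of 0.68. The second probe, at −0.57, −0.60, −0.28, −0.93 and −0.51, peaked at 30 min and was lowest at 45 min. Ccna2, which codes for cyclin A2 of S phase and G2, was at 1.26, 1.43, 1.06, 1.01 and 1.53, and at −1.73, −1.59, −1.50, −1.96 and −1.55 on its second probe. Both of its probes were lowest at 45 min.

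Cdc20 activates the ligase that destroys cyclin B at anaphase. It was at 1.81, 1.71, 1.72, 1.42 and 1.75, so that the 45 min array alone stood apart, 0.39 under 0 min. Cdc25b, a phosphatase that activates CDK1, was at −1.76, −1.55, −1.80, −1.85 and −1.95. Of these 4 genes, all were below 0 min at 45 min (45.2% of all genes), Ccnb1 by only 0.02, and 3 were at 60 min (48.1%).

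The 5 measured genes of mitotic kinases, spindle and chromosome proteins had the highest medians of any role at 15 and 30 min, 0.24 and 0.26, and medians of 0.09 and −0.04 at 45 and 60 min. Scaled on control transcripts the medians at 15 and 30 min were 0.06 and 0.11, and with normexp they were −0.23 and 0.12. With normexp the 15 min median was thus below those of the kinase inhibitors (0.04) and the S/G2 and mitotic cyclins (−0.19). Normexp refitted without 5 spots far under their local background moved the 15 min median of all 30 genes from −0.32 to 0.04. In that refit Birc5, Bub1, Plk1 and Top2a were above their 0 min level at 15 min and Aurkb below. Plk1 codes for a kinase that drives mitotic entry. It was at 3.64, 3.88, 3.90, 3.53 and 3.22 on the brighter probe (chr1:181012641-181012700, rn4) and at 2.09, 2.26, 2.32, 2.04 and 1.56 on the other (chr1:181012298-181012357). The probes had the same order of arrays, with 30 min highest and 60 min lowest, and changes of −0.42 and −0.53 at 60 min.

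Bub1, a kinase of the spindle checkpoint, was at 3.16, 3.30, 3.31, 3.25 and 2.71 (chr3:115324635-115324694, rn4). The 4 arrays of slide 1 lay within 0.15 of each other, and the 60 min array lay 0.46 below the lowest of them. Further below slide 1 at 60 min were 3.35% of all genes. Aurka, a centrosome kinase found by accession, had levels of 1.23, 1.37, 1.41, 1.30 and 0.89. It too was lowest at 60 min, 0.34 under 0 min.

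Top2a, the topoisomerase that disentangles sister chromosomes, was at 2.75, 3.14, 3.08, 2.98 and 2.79. Its second probe was at 0.54, 0.95, 0.94, 0.81 and 0.24. At 15 min the probes were 0.39 and 0.41 higher than at 0 min, and at 60 min they parted, at 0.03 and −0.30. Birc5 codes for survivin, a subunit of the chromosomal passenger complex. Its levels were −0.65, −0.14, −0.27, −0.23 and −0.37, with 0 min lowest, and 1.76% of all genes were further up at 15 min. Aurkb, the kinase of the same complex, was at −0.20, −0.31, −0.32, −0.60 and −0.24, so that it shared the low array of 45 min with Cdc20 and not the course of Birc5.

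Rad54b, a helicase of the RAD54 family in recombination repair, was the 1 listed gene with changes past 2-fold. The file gives it under an older name, so it is outside the 32 genes. Its only probe (chr5:25896670-25896729, rn4) was at −1.77, −2.62, −2.78, −3.49 and −3.50, lower on each array than on the one before. The changes were −0.85, −1.01, −1.73 and −1.74, the last 3.33-fold lower than 0 min. All of them share the single 0 min value, and against the 15 min array the 60 min change was −0.89. With normexp background correction the 15 min change had the opposite sign, 0.55, and the 60 min change was −1.09. No other alternative with 0 min as reference turned the sign at 15 min. Over these alternatives the smallest decrease was −0.39 at 30 min and −0.61 at 45 min, both under 2-fold. The probe was dim, with processed signals of 88.1, 43.3, 37.0, 22.7 and 42.3.

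**Figure D3:**
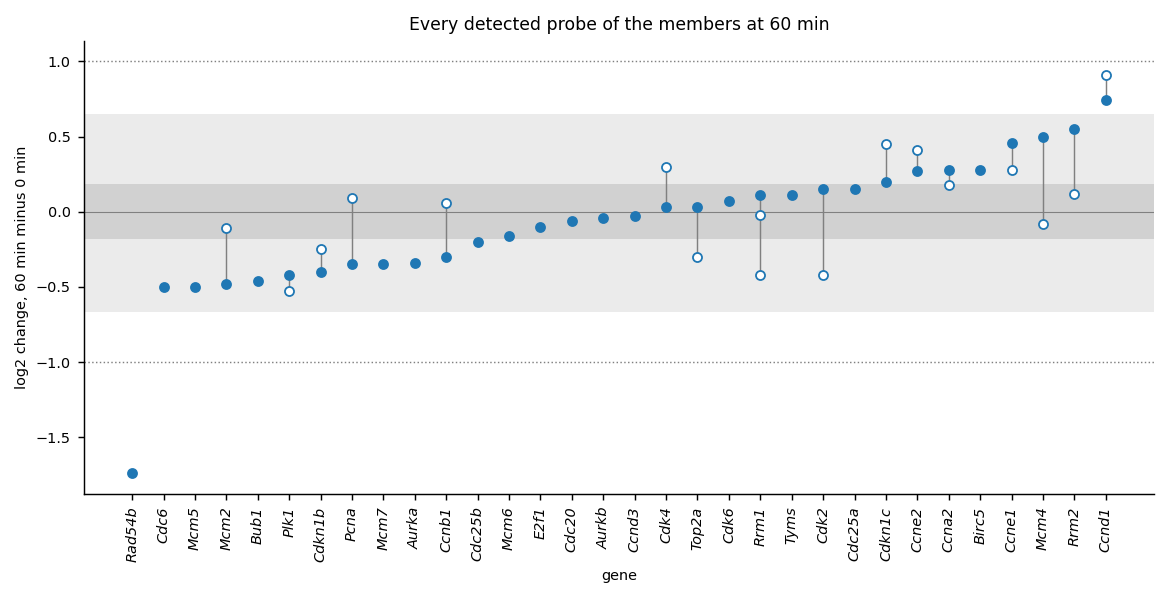
Log2 change at 60 min against 0 min (vertical axis) for every probe well above background, by gene in order of its brightest probe (horizontal axis), with filled points for the brightest probe and open points for the others. The dark band is 1 SD of a change from spots within arrays (0.184), the light band the central 95% of all genes and the dotted lines 2-fold; the brightest probe of Ccnd1 (0.74) and that of Rad54b (−1.74) lie outside the light band.

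More than 1 probe stood for 16 of the 32 genes, and these probes often disagreed. At 60 min all probes of a gene had the same sign in 10 of the 16 (62.5%), beside 53.8% of 2656 genes with several probes. The median gap between the lowest and the highest probe was 0.30, beside 0.26 over all such genes. Gaps were widest for Mcm4 (0.58), Cdk2 (0.57) and Rrm1 (0.53) and narrowest for Ccna2 (0.09) and Plk1 (0.11). Over all the alternatives that keep 0 min as the reference, 7 of the 30 genes were above 0 at 60 min throughout, namely Birc5, Ccna2, Ccnd1, Ccne1, Ccne2, Mcm4 and Rrm2. Another 12 were below 0 throughout, namely Aurkb, Bub1, Ccnb1, Cdc25b, Cdc6, Cdkn1b, Mcm2, Mcm5, Mcm6, Mcm7, Pcna and Plk1. Against the 15 min array, Birc5 (−0.23), Aurkb (0.07) and Mcm6 (0.06) had the opposite sign at 60 min, and the rest of these named genes kept theirs. Scaling on control transcripts moved the median of all genes at 60 min from 0.02 to −0.19. Being above 0 throughout was thus the harder condition for any gene, and the shares over all genes were not computed. The other 11 differed in sign between alternatives or, for Cdkn1c and Cdc20, reached 0.00.

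The step from 15 to 45 min, which lies within slide 1 and does not use the 0 min array, was downward in most of the genes. At 45 min 26 of 30 were lower than at 15 min, beside 53.1% of all genes, and the median difference was −0.19, beside −0.01. The 4 others were at most 0.09 higher. Cdc25a differed most, by −0.59. With no filter the count was 26 of 32, beside 31.6% of all genes, and with normexp correction it was 12 of 30, beside 49.1%. Under the other alternatives it was 26 or 28 of 30. The share of all genes there ran from 50.4% with the series matrix to 60.5% when scaled on control transcripts. When normexp was refitted without 5 spots far under their local background, an alternative chosen after seeing the data, the count was 28 (51.0% of all genes). This pair of times was compared after the values had been seen.

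The 60 min array was set against the range of the 4 arrays of slide 1. It lay above all 4 for 12 of the 30 genes (34.5% of all genes) and below all 4 for 10 (34.2%). Shares of this size over all genes show how far the 60 min array stood from slide 1 as a whole. Beyond the range of slide 1 by more than 0.25 were Ccnd1 (0.52) and Rrm2 (0.26) upward, and Bub1 (−0.46), Pcna (−0.35), Mcm2 (−0.31), Plk1 (−0.30), Ccnb1 (−0.28) and Cdkn1b (−0.28) downward. Of all genes, 0.904% lay further up than Ccnd1 and 7.67% further up than Rrm2. For the downward genes the share further down ran from 3.35% (Bub1) to 10.2% (Ccnb1).

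**Figure D4:**
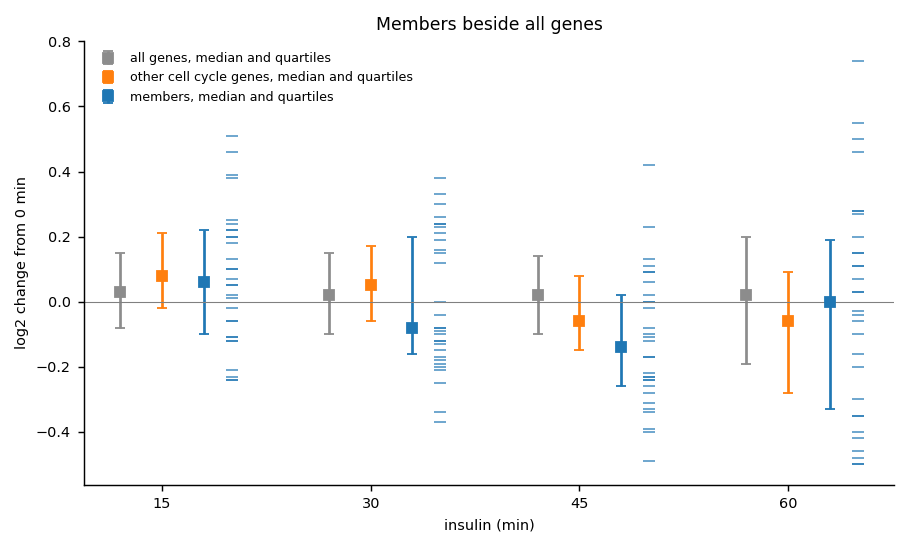
Log2 change from 0 min (vertical axis) at each time of insulin (horizontal axis) as median (square) and quartiles (bar) over all genes, over other cell cycle genes and over the 30 genes, with 1 dash per gene beside them. The median of the 30 genes is 0.06, −0.08, −0.14 and 0.00, while that of all genes stays at 0.02 or 0.03.

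A slope on time was fitted to all 5 arrays with limma for 24002 probes, with p-values adjusted after Benjamini-Hochberg. None of the 47 probes of these genes passed an adjusted p of 0.05 in either direction, and neither did any other probe (0.0% called higher and 0.0% lower). The smallest adjusted p of these 47 was 0.514 in limma. At an unadjusted p under 0.05, 1 of the 47 had a positive slope (5.36% of all probes) and 6 a negative one (3.51%). These counts depended on the processing. They were 0 and 15 when scaled on control transcripts (1.49% and 13.3% of all probes) and 0 and 1 with normexp (1.15% and 0.587%). With normexp refitted without 5 spots far under their local background they were 0 and 5 (4.59% and 3.12%). Without the 0 min array they were 0 and 9 (5.72% and 6.2% of all probes). Leaving out the 15 min array gave 0 and 3 (3.59% and 2.55%), and leaving out the 30 min array also 0 and 3 (4.21% and 2.4%). Without the 45 min array they were 4 and 4 (6.34% and 3.88%), and without the 60 min array 1 and 4 (4.68% and 4.02%). The positive slope was that of the brighter Rrm2 probe, 0.446 log2 units per h with a standard error of 0.176. The steepest negative one was that of Cdc6, −0.529 with a standard error of 0.165, followed by Mcm5 at −0.439 with 0.131.

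Ccnd1, whose 60 min array alone was high, had slopes of 0.502 and 0.613 with standard errors of 0.258 and 0.300, and unadjusted p of 0.0984 and 0.0862 in limma. Rad54b had a slope of −1.740 with an adjusted p of 0.413 in limma. A straight line describes a gene that differs on 1 array poorly, and with 3 residual degrees of freedom a p that misses the threshold does not show that a gene was level.

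Other cell cycle genes were taken from a list of 90, of which 83 were matched and 78 well above background on both arrays of each comparison. None was 2-fold higher at any time, beside 0.11% to 0.64% of all genes. At 60 min 2 were 2-fold lower (1 with normexp), beside 0.701% of all genes. Their median change was 0.08, 0.05, −0.06 and −0.06. At 60 min 16 of the 78 (20.5%) lay above all arrays of slide 1, beside 34.5% of all genes, and 31 (39.7%) below, beside 34.2%. The 2 past 2-fold were Ccng2, an atypical cyclin whose gene FoxO factors activate, at −1.21, −1.05, −1.67, −2.03 and −2.63, and Myb, a transcription factor of proliferating cells, at −3.66, −3.53, −3.75, −4.18 and −4.80. Both were lower on each array after 15 min than on the one before. The level of Myb at 60 min was near the limit of detection. Cenpe, at −4.32 and −4.20 at 45 and 60 min, was well above background on only those 2 arrays.

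The next largest decrease at 60 min was that of Dnmt1, the maintenance DNA methyltransferase, −0.69 on one probe and −0.59 on the other. Its levels were 0.87, 0.91, 0.92, 0.72 and 0.17, so that, as for Bub1, the 60 min array alone was clearly low. Upward at 60 min were Cenpf, a kinetochore protein, at 0.64, Gadd45a, a stress-induced protein that binds PCNA, at 0.61, and Wee1, the kinase that holds CDK1 inactive, at 0.53. The other probes of Wee1 gave 0.30 and 0.11, the last within the SD between spots. Gadd45a had changes of −0.56, 0.28 and 0.80 at the earlier times, so that it was lowest at 15 min and highest at 45 min.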

How the data were processed

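Total RNA of 5 samples was measured on Agilent 1-colour rat arrays (design 014879, rn4), 1 per time of insulin as given in the labels. Per the file headers, Agilent Feature Extraction 9.5.3.1 produced the deposited intensity, with background subtracted. The deposited series matrix holds log2 values centred per probe, which matched the scaled intensities (r of 0.9993 to 0.9999 across probes, column medians of 0.0). Its making was not given in the sources used here.

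To scale the arrays, signals were divided by the 75th percentile over non-control spots, spots of a probe were averaged, and log2 was taken after values under the lowest signal well above background had been raised to it. Changes were computed where a probe was well above background on both arrays. Slopes were fitted in limma 3.58.1 under R 4.3.3 over 24002 probes at a 5% false discovery rate. This step was tested on simulated data with slopes steeper than those of the genes matched by name. Whether slopes as small as theirs would be found was not tested. Other steps ran in Python 3.11.15 with pandas 2.3.3 and numpy 2.4.6, and figures in matplotlib 3.10.9. All 36 listed genes were to be named, and of the other cell cycle genes those past 2-fold and the 3 largest changes at 60 min in each direction. Members and lists were chosen with earlier results of these data known. Alternatives were quantile or control-transcript scaling, normexp (offset 50), no filter or a filter on all 5 arrays, the series matrix, the mean of probes, another reference array and leaving out each array. Probe positions are those in the files, on rn4, and exons and untranslated regions were not assigned. Promoters are RefSeq's, on GRCr8, and no coordinates were converted.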

Additional observations from a re-analysis of the deposited data

How the results depend on the processing

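The count of genes past 2-fold was 0 in both directions at each time under every alternative. So was the count of their probes past the adjusted threshold of the slope, including leave-one-out fits without each array in turn (lowest 0, highest 0 of 47, or of 51 with no filter). Over all probes, 29 higher and 14 lower of 19746 passed with the series matrix, of which 1 lower probe was of the other cell cycle genes. With the filter on all 5 arrays 3 and 1 of 19746 passed, and with no filter 1 and 0 of 40982. No probe passed under the remaining alternatives. Over the alternatives the median change of the 30 genes ranged from −0.32 to 0.07 at 15 min, −0.23 to −0.03 at 30 min, −0.35 to −0.11 at 45 min and −0.20 to 0.04 at 60 min. Scaling on control transcripts gave −0.35 at 45 min and −0.20 at 60 min for these genes, and −0.27 and −0.26 for the other cell cycle genes, with 1 of the latter 2-fold lower at 45 min. Normexp gave −0.32 at 15 min for these genes and −0.16 for the other cell cycle genes. Of the latter 6 were 2-fold higher and 1 lower at 15 min, without a share of all genes under normexp to set beside them. With normexp, and also when it was refitted without 5 spots far under their local background (an alternative chosen after seeing the data), 1 other gene was 2-fold lower at 60 min. Refitted normexp gave 0.04 at 15 min for the 30 genes. With the 15 min array as reference, the 2-fold higher count of the other genes was 1 at both 45 and 60 min. The 1.5-fold count and the comparison of 60 min with slide 1 were also chosen after seeing the data. Of the alternative values for single genes at 60 min, 231 moved by less than the SD between spots and 57 by more. The normexp shift at 15 min was absent in the refit without those 5 spots, and the causes of the differences were not tested.

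No paired analysis was possible because each time has 1 array and the labels give no replicate numbers. Signal over background limits Ccnb2 and Ccnd2, for which no change can be given, and precision is least known for genes with 1 probe and 1 spot.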
